A study of Homo sapiens with 2 samples.

Results

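The ZNF genes studied here carry the largest family name of human transcription factors, and 226 of the 471 that the array annotation names lay above a signal floor. Members were chosen by symbol (ZNF followed by digits, with letters allowed after them), by the brightest probe set of each gene, and by a mean log2 signal of both arrays of at least 4.5. The members thus made up 226 of 7972 named genes past the same floor and of 14884 named genes in all. The floor used the same values that are described below, so the levels are a description and carry no test.

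The cells were SNK6, a human NK/T-cell lymphoma line, cultured in RPMI-1640 with 10% serum and interleukin-2 at 500 U/ml. Both samples received romidepsin, which blocks class I histone deacetylases, for 72 h, and 1 of them also received sildenafil, a phosphodiesterase inhibitor. The second drug is abbreviated in the sample title and was read as sildenafil because the protocol names no other. Each treatment had 1 array, no dose is stated in the labels, and no culture without romidepsin was analysed here. A difference below always means the combination array's log2 signal minus the romidepsin array's, and none has a replicate error or a p-value.

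Most ZNF proteins bind DNA through arrays of C2H2 zinc fingers, short loops in which pairs of cysteines and histidines hold a zinc ion. Many also carry a KRAB domain, which recruits TRIM28 and through it the methyltransferase SETDB1, HP1 proteins and deacetylase complexes to silence retrotransposons and genes. KRAB-ZNF genes multiplied by tandem duplication and lie in dense clusters of related copies, above all on human chromosome 19. The symbol is a naming convention, and some members are RNA-binding, ribosomal or ubiquitin ligase proteins. All 226 members matched a RefSeq gene by Entrez identifier, 224 of them protein-coding and 2 transcribed pseudogenes (ZNF271P and ZNF767P).

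The labelled cell type was checked against its markers. The array annotation named 9 of 12 listed NK cell markers, and 7 of these passed the floor. The brightest were the cytotoxic pore protein gene PRF1 (8.83 on the romidepsin array and 8.81 on the other) and the granule protein gene NKG7 (8.50 and 8.23). The dimmest that passed were NCR3 (4.70 and 4.69), TBX21 (4.62 and 5.09) and NCR2 (4.79 and 5.16). Of these 7 markers TBX21 and NCR2 had the largest differences, 0.47 and 0.38. GNLY (3.82 and 3.92) and EOMES (3.21 and 2.90) lay below the floor. None of the 4 named monocyte and macrophage markers passed the floor. Of 8 listed T cell markers 4 were named and none passed, with CD4 (4.42 and 4.52) and CD8A (4.46 and 4.44) just below the floor. The T cell markers CD3D, CD3E, CD3G and TRAC were not named, so their signals were not analysed here. The B cell markers PAX5 (5.23 and 5.05) and BLK (5.19 and 5.14) did pass. The table holds no detection calls, so a signal above 4.5 is not a call of expression.

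Few members stood far apart on the arrays. Of the 226 members, 221 lay within 1.5-fold of equality, 1 was higher by that much or more with sildenafil and 4 were lower. Among all named genes past the floor, 0.439% were higher by at least 1.5-fold and 0.677% lower. The members' shares were 0.442% and 1.77%, so the share of higher members was at the background and that of lower members rested on 4 genes. No member reached 2-fold in either direction, a size that 0 of all 7972 genes reached upwards (0%) and 4 downwards (0.0502%).

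The 5 members beyond 1.5-fold were ZNF25, ZNF680, ZNF157 and ZNF581 (lower) and ZNF823 (higher). ZNF25, a KRAB zinc finger gene, had a log2 signal of 5.83 with romidepsin alone and 4.85 with sildenafil added, a difference of -0.98 or 1.97-fold. The KRAB zinc finger gene ZNF680 had 5.66 without and 5.02 with sildenafil, a difference of -0.64. ZNF157, another KRAB zinc finger gene, had 6.71 without and 6.10 with (-0.61). These 3 lower genes had medium signals, and each was read from 1 probe set. ZNF581 had 6.36 without and 5.77 with sildenafil (-0.59), just past the threshold of 0.58 on the log2 scale. ZNF823, a KRAB zinc finger gene, was the only member on the other side, with 5.07 without and 5.89 with sildenafil (0.82). The calls of ZNF157 and ZNF581 ended under other scalings of the arrays, at -0.56 and -0.54 after quantile normalization and at -0.58 and -0.56 after lowess centring. ZNF587, at -0.56, passed the threshold when the arrays were centred on their medians (-0.59) or by lowess (-0.59).

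**Figure D1:**
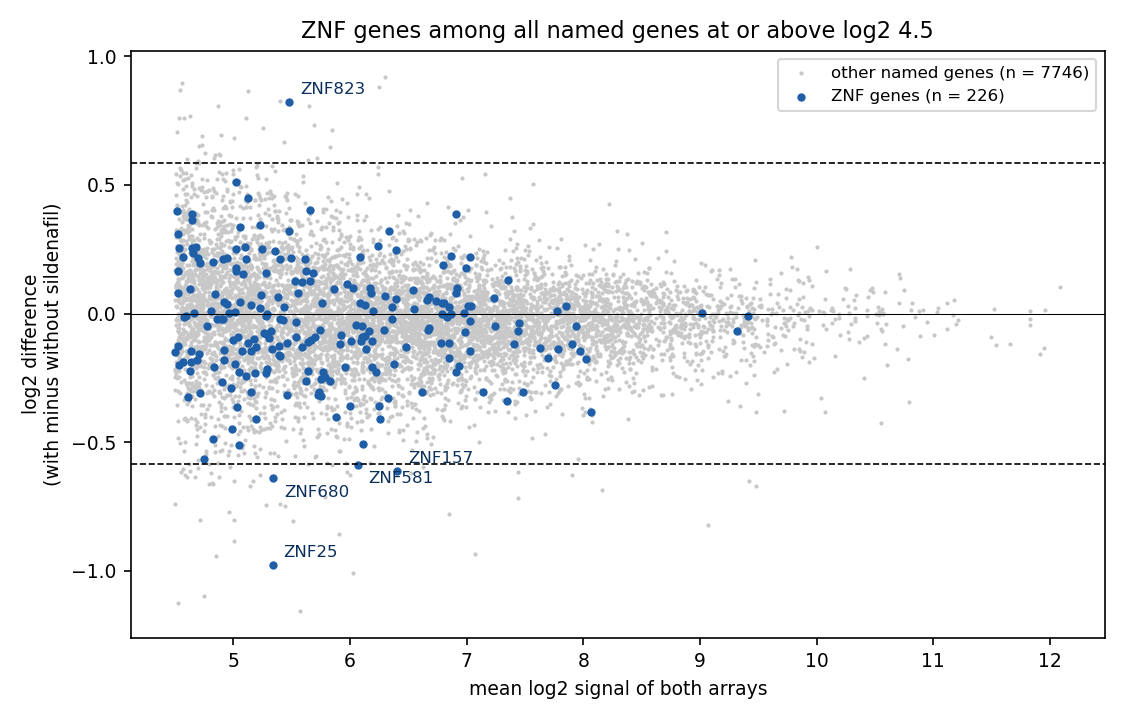
The log2 difference (with minus without sildenafil) is plotted against the mean log2 signal of both arrays for the 226 ZNF genes (blue) and the 7746 other named genes (grey), 1 array per treatment. The dashed lines mark 1.5-fold. ZNF823 lies above the upper line and ZNF25, ZNF680, ZNF157 and ZNF581 below the lower one, and the spread narrows as the signal grows.

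Beyond these, the next members differed by less than 1.5-fold. On the lower side ZNF587 (5.03 without and 4.47 with sildenafil), ZNF696 (-0.51), ZNF691 (-0.51) and ZNF783 (-0.49) followed. ZNF239, also known as MOK2, which binds RNA as well as DNA, differed by -0.45. ZNF639, ZNF562 and ZNF593 were between -0.41 and -0.40. On the higher side ZNF878, a KRAB zinc finger gene, had 4.76 without and 5.27 with sildenafil (0.51). ZNF764 differed by 0.45 and ZNF202, a repressor with both a SCAN and a KRAB domain, by 0.40 (5.45 and 5.86). ZNF655 was the brightest of the 12 highest differences, at 6.71 without and 7.10 with sildenafil (0.39). ZNF497, ZNF160 and ZNF529 differed by 0.40, 0.39 and 0.36, and all 3 were below the floor on the romidepsin array. ZNF784, ZNF34, ZNF777 and ZNF621 completed the 12 with differences of 0.35, 0.34, 0.32 and 0.32.

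**Figure D2:**
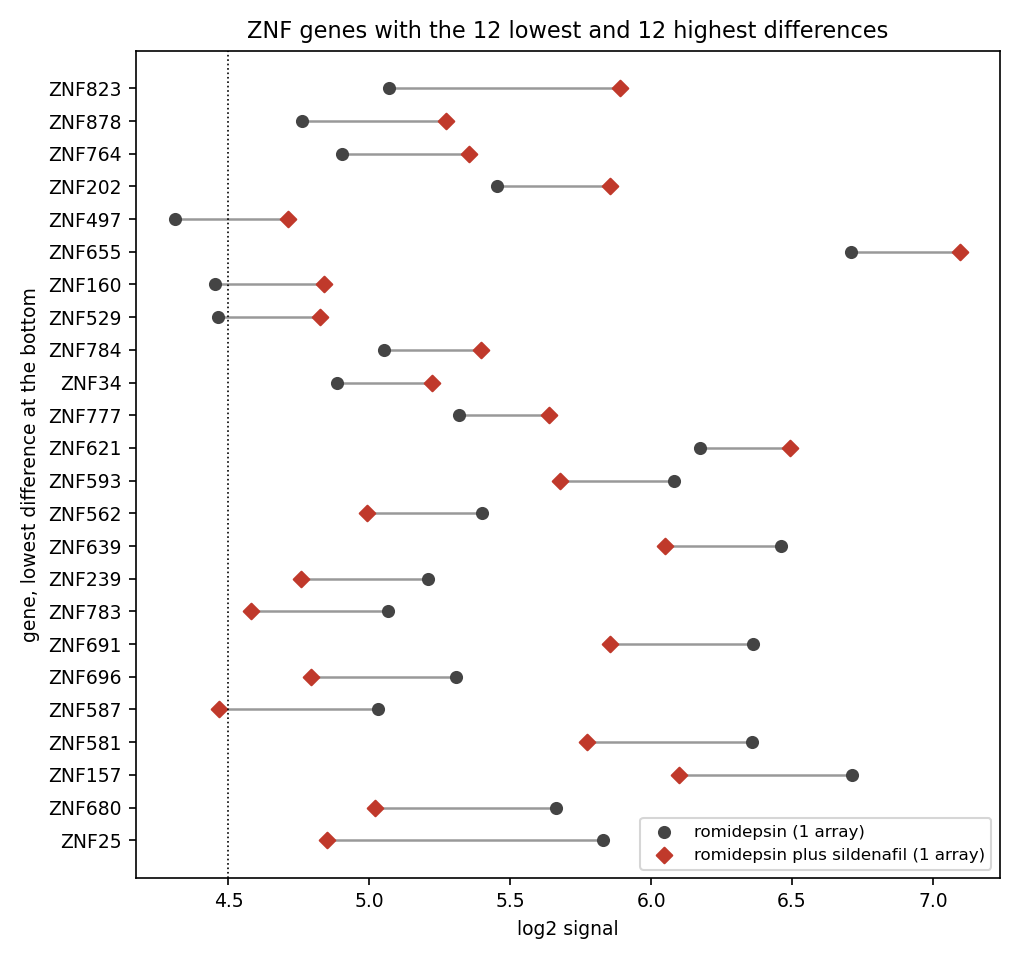
Log2 signals on the romidepsin array (black circles) and the romidepsin plus sildenafil array (red diamonds) are joined by a line for the 12 ZNF genes with the lowest and the 12 with the highest difference, 1 array each. The dotted line is the floor of 4.5, which applies to the mean of both arrays. The longest lines belong to ZNF25 (5.83 to 4.85) and ZNF823 (5.07 to 5.89).

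The members as a whole leaned slightly lower than other genes. Their median difference was -0.05, against -0.02 over all named genes past the floor. Of the members 131 (58.0%) were lower, 94 higher and 1 (ZNF322, 6.79 on both arrays) equal. Among all 7972 named genes past the floor 4421 (55.5%) were lower, so the members' share was near the background. The middle of the members, between their first and last quartile, ran from -0.18 to 0.08. At a smaller threshold, a log2 difference of 0.32, 10 members (4.42%) were higher and 19 (8.41%) lower, beside 4.11% and 5.04% of all named genes. The members' median stayed below that of all genes under median centring (-0.08 against -0.05), quantile normalization (-0.01 against 0.02) and lowess centring (-0.03 against 0.01). These offsets of about the same size are small beside the members' own SD of 0.23, which is a spread over genes and not an error of replicates.

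**Figure D3:**
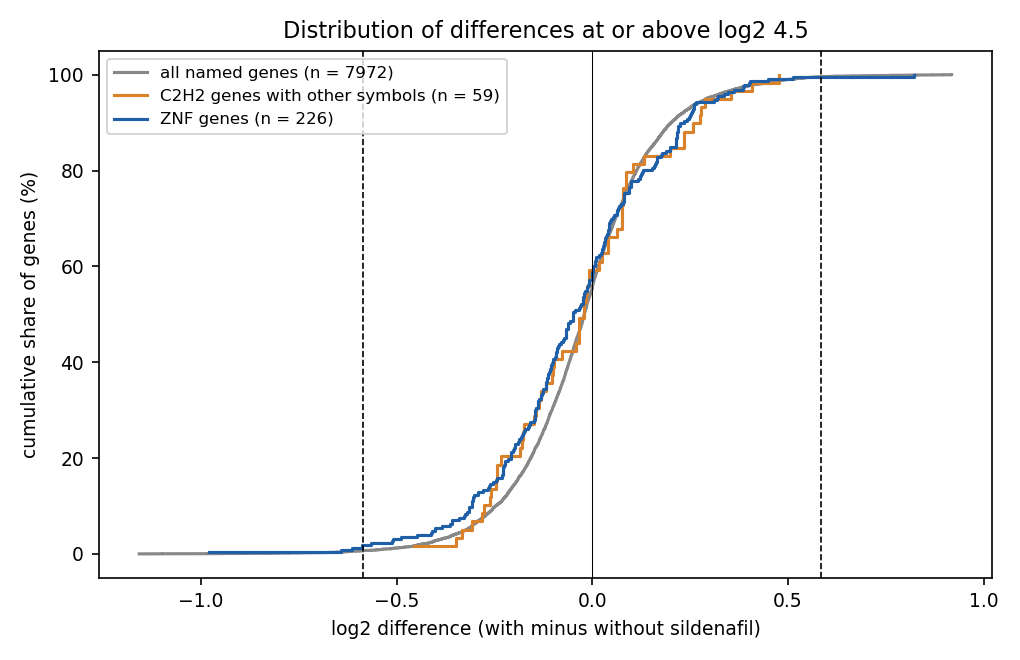
The cumulative share of genes (percent) is plotted against the log2 difference (with minus without sildenafil) for the 226 ZNF genes (blue), 59 genes taken by related symbols, ZBTB8OS included (orange) and all 7972 named genes past the floor (grey). The dashed lines mark 1.5-fold. The blue curve lies left of the grey one over most of its lower part, with medians of -0.05 and -0.02, and the curves meet near the upper end.

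Signal level moved with the size of the differences. Members had a median mean signal of 5.62, while the other named genes past the floor had 6.30. Between 4.5 and 5, 14.3% of 49 members lay beyond 0.32 on the log2 scale, beside 19.8% of 1225 other genes. From 5 to 6 the shares were 13.8% of 87 members and 13.2% of 2052 others. From 6 to 7 they were 12.9% of 62 members and 6.39% of 1956 others, and from 7 upwards 7.14% of 28 members, which is 2 genes, and 2.51% of 2513 others. In the brighter ranges the members' share was thus the larger one, from 8 and 2 genes. The part of signal level in the differences of single members was not tested.

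Of the 6 brightest members, 5 differed by at most 0.18. ZNF207, which encodes the spindle assembly factor BuGZ, had the highest signal, 9.42 without and 9.41 with sildenafil. ZNF280C had 9.35 and 9.28, and ZNF121 9.02 and 9.02. ZNF512 had 8.11 and 7.93, and ZNF146, whose protein consists almost wholly of zinc fingers, 8.05 and 7.90. The other was ZNF800, at 8.26 without and 7.87 with sildenafil (-0.38). At the other end of the range, the members just above the floor were ZNF564 (4.58 without and 4.43 with sildenafil), ZNF497 (4.31 and 4.71) and ZNF205 (4.59 and 4.46). Just below it lay ZNF136 (4.57 and 4.36), ZNF135 (4.15 and 4.78) and ZNF782 (4.37 and 4.53).

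Of 27 ZNF genes with well-described roles, 22 passed the floor, and none of these was 1.5-fold apart, a count near the background of 0.439% higher and 0.677% lower. The 5 that did not pass were ZNF10, ZNF91, ZNF331, ZNF423 and ZNF521. Among 8 transcription factors of promoters and enhancers the median difference was -0.06, with 3 higher and 5 lower. ZNF143, an activator bound at many promoters, had 6.54 without and 6.41 with sildenafil. ZNF410, which activates the nucleosome remodeller gene CHD4, had 6.06 and 5.95, and CHD4 itself 8.42 and 8.45. ZNF395 differed by -0.18, the most of this group, and ZNF384, at 7.84 and 7.87, was its brightest member.

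Among 8 repressors and chromatin partners the median was 0.03, with 5 higher and 3 lower. ZNF274, which brings SETDB1 to the ends of other ZNF genes, had 4.46 without and 4.67 with sildenafil (0.22). ZNF451, a SUMO ligase, differed by 0.22 in its brightest probe set, but by 0.07 over the mean of its probe sets. ZNF445, which maintains genomic imprinting, differed by -0.05 in its brightest probe set and by 0.15 over the mean of its probe sets, so its sign depends on that choice. ZNF644, a partner of the histone methyltransferase G9a, differed by -0.14, and ZNF217, which binds the CoREST complex, by 0.03.

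Among 6 proteins of RNA, ribosomes and the spindle the median was -0.06, with 2 higher and 4 lower. ZNF593, a factor of large ribosomal subunit assembly, had 6.08 without and 5.68 with sildenafil (-0.40). ZNF830 had 7.29 and 6.99 (-0.30). ZNF598, the ubiquitin ligase that senses collided ribosomes, differed in the other direction, with 6.27 without and 6.52 with sildenafil (0.25). ZNF622, another factor of large subunit maturation, differed by 0.06, so the ribosome-related members did not share a direction.

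The corepressor machinery of KRAB proteins was described from a list. Of 28 listed genes 24 were named and 23 passed the floor, with a median of -0.04, 9 higher and 14 lower (60.9%). Of all named genes past the floor 55.5% were lower. None of the 23 was 0.32 or more apart on the log2 scale. Of other named genes, 6.39% lay beyond that size at signals from 6 to 7 and 2.51% from 7 upwards, so 0 of 23 is near the background. TRIM28, the scaffold that KRAB domains bind, had 8.45 without and 8.55 with sildenafil. SUMO2, a modifier attached to TRIM28, differed by -0.31 (9.65 and 9.34), CBX3, which encodes HP1 gamma, by -0.27 (9.15 and 8.87), and the SETDB1 partner gene ATF7IP by -0.15. SETDB1 was not analysed here. The 59 genes with related names (ZBTB, ZFP, ZSCAN and ZKSCAN) that passed the floor had a median of -0.02, with none 1.5-fold apart. They were taken by symbol and include ZBTB8OS (-0.31), which is not a zinc finger gene. With 0.439% and 0.677% of all named genes beyond that size, a count of 0 among 59 is near the background. Their largest differences were 0.48 for ZBTB34, -0.46 for ZBTB43 and 0.41 for ZBTB22.

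Neighbouring genes of the family were compared next, because duplicated ZNF genes lie side by side. A run was defined as at least 3 protein-coding ZNF genes in a row in RefSeq gene order (assembly GRCh38.p14), with no other protein-coding gene between them. Of the 35 such runs, 29 held at least 1 member. Of 233 named ZNF genes in runs 33.5% passed the floor, and of 238 outside them 62.2% did. The 78 members inside runs had a median difference of 0.00 and an SD over genes of 0.27, and the 148 outside had -0.07 and 0.20. Of the 5 members beyond 1.5-fold 4 lay inside runs, and ZNF157 lay outside. Inside runs 1 member (1.28%) was higher and 3 (3.85%) lower, and outside 0 (0%) and 1 (0.676%). Among all named genes past the floor the shares were 0.439% and 0.677%. The larger shares inside runs thus rest on 4 genes, and the number lower was 2 after quantile normalization. Members inside runs also had a lower median signal than those outside, and the part of signal level in these shares was not tested. The median difference of members inside runs lay above that of all named genes under the 3 other scalings, too. Near-identical copies can share array signal, and its part in these values was not tested.

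**Figure D4:**
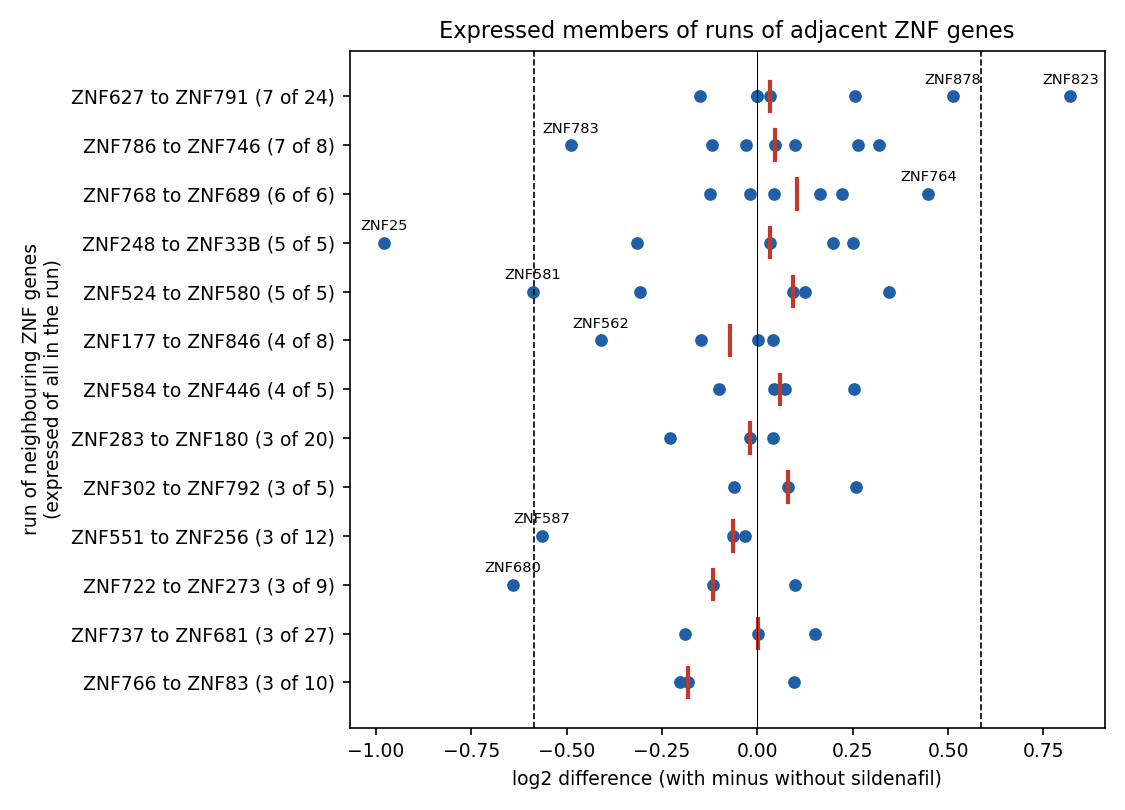
Each point is the log2 difference (with minus without sildenafil) of 1 ZNF gene past the floor, arranged by the 13 runs of adjacent ZNF genes with at least 3 such genes. Red ticks mark the run's median, dashed lines 1.5-fold, and the brackets give the genes past the floor of all genes in the run. ZNF25 and ZNF823 lie at the outer ends, while the medians of the 13 runs lie between -0.18 and 0.10.

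ZNF25 differed from its neighbours. In the run from ZNF248 to ZNF33B all 5 genes were members, and the 4 around ZNF25 differed by 0.25 (ZNF248), 0.03 (ZNF33A), 0.20 (ZNF37A) and -0.32 (ZNF33B). With sildenafil ZNF25 had the lowest signal of the run, 4.85, and without it the second highest, 5.83 after 5.88 for ZNF33B, although levels of different genes rest on different probes. ZNF581 was likewise flanked by genes of other sign, ZNF784 at 0.35 and ZNF580 at 0.09, within a run of 5 members. ZNF680 at -0.64 was followed in gene order by ZNF107 at 0.10 and then ZNF138 at -0.12. In the run from ZNF786 to ZNF746, with 7 of 8 genes past the floor, ZNF783 at -0.49 lay between ZNF212 at 0.26 and ZNF777 at 0.32.

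ZNF823 and ZNF878, the members with the highest differences, both lay in the run from ZNF627 to ZNF791. This run held 24 genes, of which 22 were named and 7 passed the floor. ZNF44 came next among them, with 4.52 without and 4.78 with sildenafil (0.26). The other 4 were ZNF490 at 0.03, ZNF700 at 0.00, ZNF791 at -0.00 and ZNF564 at -0.15, so the run did not move as a block. In the run from ZNF768 to ZNF689 all 6 genes were members, with ZNF764 at 0.45, ZNF747 at 0.22, ZNF688 at 0.16, ZNF689 at 0.04, ZNF768 at -0.02 and ZNF785 at -0.13.

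The promoters of the genes at both ends of the distribution are shown as RefSeq gives them, 250 bases before to 50 after the annotated start on build GRCh38.p14, 5′ to 3′ on the gene's strand. Capitals mark CCAAT and GGGCGG on either strand. CCAAT is the box bound by NF-Y, and GGGCGG the GC box bound by the SP family. The pair ZNF823 and ZNF878 is shown for its shared run and direction, and ZNF25 for the largest difference of all members.
ZNF823 (chr19:11738897-11739196, minus strand): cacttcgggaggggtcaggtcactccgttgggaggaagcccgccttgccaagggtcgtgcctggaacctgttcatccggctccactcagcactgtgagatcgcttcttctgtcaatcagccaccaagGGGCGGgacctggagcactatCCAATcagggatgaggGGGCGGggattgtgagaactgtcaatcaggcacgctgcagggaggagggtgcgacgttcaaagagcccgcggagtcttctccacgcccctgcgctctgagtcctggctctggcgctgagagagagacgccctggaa
ZNF878 (chr19:12052912-12053211, minus strand): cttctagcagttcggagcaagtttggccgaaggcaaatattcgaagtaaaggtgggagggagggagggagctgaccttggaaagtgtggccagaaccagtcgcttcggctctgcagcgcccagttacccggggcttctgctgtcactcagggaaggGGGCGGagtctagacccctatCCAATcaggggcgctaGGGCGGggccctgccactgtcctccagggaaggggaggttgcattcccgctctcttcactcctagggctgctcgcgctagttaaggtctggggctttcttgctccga
ZNF25, the first of 2 listed starts (chr10:37976598-37976897, minus strand): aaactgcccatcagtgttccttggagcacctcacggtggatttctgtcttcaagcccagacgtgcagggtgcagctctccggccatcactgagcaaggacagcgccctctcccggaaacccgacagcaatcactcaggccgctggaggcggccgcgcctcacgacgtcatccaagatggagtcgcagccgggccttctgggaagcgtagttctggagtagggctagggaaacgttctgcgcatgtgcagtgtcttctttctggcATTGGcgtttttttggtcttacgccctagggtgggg

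ZNF823 and ZNF878 each held 2 GC boxes with 1 CCAAT box between them, all before the annotated start. The printed ZNF25 promoter held 0 GC boxes and 1 CCAAT box, which lay on the opposite strand and after the annotated start. At the other listed ZNF25 start there were also 0 GC boxes and 1 CCAAT box on the opposite strand, but before the start. The longest stretch that the ZNF823 and ZNF878 promoters share is CTATCCAATCAGGG, 14 bases around the CCAAT box. On either strand it occurs in 7 of 35116 promoters of this length (0.0199%), of which 6 belong to ZNF genes. These 6 are printed with the stretch in capitals, because most lie in the same run.
ZNF823: ctggagcaCTATCCAATCAGGGatgagggg
ZNF878: ctagacccCTATCCAATCAGGGgcgctagg
ZNF627: atgtcaccCTATCCAATCAGGGgcgctggg
ZNF443: ctgacgccCTATCCAATCAGGGgcgtgggg
ZNF441: ctggcgcaCTATCCAATCAGGGccgcgggg
ZNF519: ctgcactaCTATCCAATCAGGGctctgggg

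The stretch begins between 38 (ZNF441) and 125 (ZNF443) bases before the start. ZNF823, ZNF878 and ZNF519 were members, with ZNF519 at 5.75 without and 5.52 with sildenafil (-0.22). The other 3 lay below the floor: ZNF627 had 4.01 without and 4.37 with sildenafil (0.37), ZNF443 had 3.03 and 3.42 (0.39) and ZNF441 had 1.98 and 1.94 (-0.04). The shorter inner stretch TATCCAATCAG occurred in 50 promoters (0.142%), of which 33 were of ZNF genes. Of these 33 genes 10 were members, 3 higher and 7 lower, with a median of -0.15 and a range from -0.64 (ZNF680) to 0.82 (ZNF823). The same letters thus stood before the highest member and before 1 of the lowest. The stretch was picked after the values had been seen, and a match is a description of letters.

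A second shared stretch lay in the run from ZNF177 to ZNF846. All 4 members of that run, ZNF266, ZNF121, ZNF561 and ZNF562, carry GCGGAAGTGACGTCA, which joins the core of an ETS site (GGAA) to the full cAMP response element TGACGTCA. It was taken as the longest stretch shared by the TGACGTCA promoters of these 4 genes, so its presence in all 4 follows from that choice.
ZNF266: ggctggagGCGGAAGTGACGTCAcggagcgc
ZNF121: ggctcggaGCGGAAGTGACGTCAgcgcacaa
ZNF561: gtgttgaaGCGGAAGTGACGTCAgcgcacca
ZNF562: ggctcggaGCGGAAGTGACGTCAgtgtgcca

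The stretch begins 24, 57, 30 and 14 bases before the start of these genes. It was found in 11 promoters outside chr8 (0.0313%), with no other ZNF gene among them. Their signals differed widely, from 9.02 for ZNF121 to 5.22 for ZNF561 without sildenafil. The differences were 0.04 for ZNF266, 0.00 for ZNF121, -0.15 for ZNF561 and -0.41 for ZNF562, so the shared letters came with values from near equality to a lower signal. Over all members with a RefSeq promoter outside chr8 (197 of 226, with 256 promoters), 13 genes held TGACGTCA. They had a median difference of 0.00, with 7 higher and 6 lower, from -0.41 (ZNF562) to 0.22 (ZNF547), and the 184 without it had a median of -0.05. None of the 13 was 1.5-fold apart, which is near the background of 0.439% higher and 0.677% lower. TGACGTCA stood in 5.08% of the members' promoters, in 2.81% of 8471 promoters of other named genes past the floor and in 1.85% of all promoters.

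The exact core of the site bound by ZNF143, itself a member, was held by the promoters of 6 members. It stood in 2.34% of the members' promoters, in 0.413% of those of other named genes past the floor and in 0.231% of all promoters. ZNF451 differed by 0.22, ZNF343 by -0.01, ZNF180 by -0.02, ZNF317 by -0.07, ZNF277 by -0.17 and ZNF565 by -0.19. Their median was -0.04, beside -0.05 for the 191 matched members without the core. Of the more common motifs, GGGCGG stood in 66.4% of the members' promoters and 66.8% of those of other named genes past the floor, CCAAT in 41.4% and 35.5% and CACGTG in 7.03% and 10.0%. Members with CCAAT had a median difference of -0.07 (96 genes) and those without it of -0.02 (101 genes). TATAAA stood in 10 of the members' 256 promoters and in 508 of 8471 promoters of other named genes past the floor, and in 11.5% of all promoters. The 10 members with it had a median of -0.19, with 8 lower and 2 higher, and the 187 without it had -0.05. Of all members 58.0% were lower, and of all named genes past the floor 55.5%. None of the 10 was 1.5-fold apart, which is near the background of 0.439% higher and 0.677% lower. Shares are given per promoter and medians per gene, and these motifs overlap where a promoter holds several.

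Below the floor, 140 of the 245 ZNF genes were higher with sildenafil and 103 lower. Of these 245 genes, 11 (4.49%) exceeded 1.5-fold on the higher side and 4 (1.63%) on the lower, beside 2.72% and 1.48% of the 6912 named genes below the floor. The median difference of these ZNF genes was 0.04, and none was taken over all named genes below the floor. Without a floor the median was 0.00 for ZNF genes and 0.003 for all named genes. Past the floor these medians were -0.05 and -0.02, so both sets moved upwards when dim genes were added. ZNF30 had 1.90 without and 2.90 with sildenafil, and ZNF528 had 3.73 and 4.63. ZNF675 had 3.78 without and 2.53 with, and ZNF117 had 4.08 and 3.14. The SD over these genes was 0.30, beside 0.23 for the members, and signals of this size lay near or under the median of the whole table, 3.91.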

How the data were processed

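Per the labels' protocols, total RNA was converted with a whole-transcript amplification kit and biotin-labelled for array hybridisation. The deposited table holds log2 signals for 53617 probe sets and 2 arrays. The log base is not written there and was taken as 2 because the highest signal, 13.05, is larger than a 16-bit ceiling gives as a natural log (11.1). How the authors summarised and normalized them was not given in the sources used here. Columns were not centred on 0. Their medians were 3.89 and 3.92, and their sorted values differed by at most 0.15, so a change shared by most transcripts could not be seen. The platform annotation gave 16098 probe sets 1 symbol and 0 several. The other 37519 are unnamed here. Precision is limited by the number of arrays.

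Each gene was read from its brightest probe set, and 11 members had more than 1. Of their 12 further probe sets 5 passed the floor and none was 1.5-fold apart. Members and lists were chosen with earlier results of these data known. Genes named in the text were the 12 highest and 12 lowest differences, every member beyond 1.5-fold, the 6 brightest and those at the floor. A list of known roles and the 3 largest differences past the floor of other lists were named, too. TRIM28, CHD4 and further cell type markers were named outside this rule. Run neighbours, the promoter stretches and the genes holding them, and genes below the floor were named after their values were seen. A planned grouping by protein domain was not made because no protein table was used here. Promoters came from RefSeq (GRCh38.p14), those on chr8 were left out, and no array coordinates were used. Counting was tested on simulated data. Python 3.11.15, numpy 2.4.6, pandas 2.3.3, statsmodels 0.14.6 and matplotlib 3.10.9 were used.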

Additional observations from a re-analysis of the deposited data

How the results depend on the processing

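With 1 array per treatment no replicate could be left out. No paired analysis was possible because each treatment has 1 sample and no test was made. Of the main counts, 1 member was 1.5-fold higher and 4 lower. The number lower was 2 after quantile normalization. The number higher was 3 of 276 with a floor of 4.0, where 0.706% of all named genes were higher. Without a floor 12 genes were higher and 8 lower of 471, beside 1.5% and 1.05% of all named genes. At a log2 threshold of 0.32, 10 were higher and 19 lower, and at 2-fold 0 and 0. Median centring, lowess centring, probe set averaging, genes with 1 probe set and a floor of 5.0 kept both counts within 1.5 times. The median of the members moved by less than 0.1 under the 8 alternatives that could change it, from -0.08 to 0.00. Of 200 recomputed differences of 50 named members 6 crossed 1.5-fold, all of them of ZNF157, ZNF581 or ZNF587, and 2 others moved by at least 0.1 (ZNF445 and ZNF451). The causes were not tested. No detection calls were used, so signal over background limits the dim members.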
